A study of Mus musculus with 6 samples.

Results

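The genes described here encode the enzymes that hydroxylate collagen chains inside the cell and crosslink them outside it. They are the 5 lysyl oxidases Lox, Loxl1, Loxl2, Loxl3 and Loxl4, the 3 lysyl hydroxylases Plod1, Plod2 and Plod3, and the prolyl 4-hydroxylase alpha subunits P4ha1 and P4ha2. These 10 genes were taken by symbol from the 24940 genes of the deposited count table, and each had 1 row. All 10 passed the filter on low counts. They were measured in primary hepatic stellate cells, the retinoid-storing pericytes of the liver that become matrix-producing myofibroblasts in fibrosis. The cells came from wild-type female C57BL/6JBomTac mice and were in culture for 2 days before treatment. Forskolin, a plant diterpene that activates adenylyl cyclase and so raises cAMP, was then added at 5 µM for 3 h to 3 samples (replicates A, B and C), and DMSO, its solvent, to 3 control samples. Both groups had thus been in culture for the same time, no sample of freshly isolated cells is compared here, and the labels do not say whether the letters mark separate animals or isolations. P-values therefore measure only how far these libraries differ among themselves, and that spread may be technical.

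Collagen acquires 4-hydroxyproline in the endoplasmic reticulum, where P4ha subunits work in a complex with protein disulfide isomerase (P4hb) and the modification stabilises the triple helix. Lysyl hydroxylases modify lysines of the same chains; Plod2 acts on the ends of the chains and so sets the type of crosslink, and Plod3 also adds sugars to hydroxylysine. Both hydroxylase classes need iron, 2-oxoglutarate and ascorbate. Lysyl oxidases are copper enzymes of the extracellular space that oxidise lysine and hydroxylysine in collagen and elastin, from which covalent crosslinks form. In activated stellate cells these steps turn soluble collagen into stiff, insoluble scar, and several of the genes, P4ha1, Plod2 and Lox among them, are known targets of the hypoxia-inducible factors (HIF) in other cells.

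Library totals ran from 2770628 counts in forskolin C to 10607997 in forskolin B, with DMSO C at 3025990, so both C libraries were the shallowest of their group. Across the 12233 genes tested, log2 CPM of A and B correlated at 0.980 with forskolin and 0.972 in DMSO. Pairs within a group that included a C library correlated at 0.925 to 0.930. For CPM, each count was scaled to the library total times its TMM factor, and these logs used a prior count of 2. The treatment was seen in every library: Nr4a1, an immediate target of cAMP signalling, stood at 41.0 to 42.6 CPM in controls and at 413 to 517 CPM after treatment. Of 10 stellate cell markers all were detected, and their summed level was 1591 to 1726 CPM in DMSO and 1596 to 1822 CPM with forskolin (these sums use column totals). Single markers did not all follow the sum: Hand2, a transcription factor of stellate cells, rose from 46.9 ± 12.5 to 96.5 ± 10.3 CPM (edgeR log2 fold change 1.03 ± 0.19, adjusted p = 0.0152). Lrat, which esterifies retinol, had 9.94 ± 1.97 CPM in controls and 6.66 ± 1.14 CPM after treatment. Its groups did not overlap, but it was not called (edgeR adjusted p = 0.647). Both genes are named after their values were seen. Of the 10 markers, 1 was called higher and 0 lower (all genes, 2.22% and 0.572%). The groups did not overlap for 4 of the 10 (all genes, 20.2%), and 7 had a log2 fold change above 0 (all genes, 50.8%). The sums were 6.29 to 8.44 and 4.70 to 18.9 CPM for 8 hepatocyte markers, 3.33 to 10.6 and 6.23 to 6.69 CPM for 8 endothelial markers, and 19.8 to 26.8 and 17.7 to 20.3 CPM for 9 leukocyte markers. For 10 markers of portal fibroblasts and mesothelial cells, which also make lysyl oxidases, the sums were 16.2 to 44.8 and 27.1 to 46.8 CPM, lowest in DMSO C and forskolin C, with Thy1 and Upk3b at 0 in every library. The part of other cells in the results below was not tested.

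Promoters of 4 genes are shown because they set a gene that answered forskolin strongly (Nr4a1) and the ascorbate transporter gene that rose (Slc23a2) beside members of 2 enzyme classes that did not pass the test (P4ha2 and Loxl4). Each runs from 250 bases before to 50 bases after a start site, 5′ to 3′ on the gene's own strand, from RefSeq on GRCm38.p6. Capitals mark TGACG, the core of the cAMP response element (CRE), and ACGTG, a form of the core of the hypoxia response element (HRE), on either strand. No other form of the HRE core was searched.
Nr4a1, chr15:101266596-101266895, plus strand: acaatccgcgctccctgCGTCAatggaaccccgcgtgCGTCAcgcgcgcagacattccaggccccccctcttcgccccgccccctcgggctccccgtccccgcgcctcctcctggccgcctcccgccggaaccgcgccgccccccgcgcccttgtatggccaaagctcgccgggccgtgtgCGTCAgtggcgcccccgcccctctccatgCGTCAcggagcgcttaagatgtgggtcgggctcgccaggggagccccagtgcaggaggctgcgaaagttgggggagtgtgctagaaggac
Slc23a2, chr2:132145271-132145570, minus strand: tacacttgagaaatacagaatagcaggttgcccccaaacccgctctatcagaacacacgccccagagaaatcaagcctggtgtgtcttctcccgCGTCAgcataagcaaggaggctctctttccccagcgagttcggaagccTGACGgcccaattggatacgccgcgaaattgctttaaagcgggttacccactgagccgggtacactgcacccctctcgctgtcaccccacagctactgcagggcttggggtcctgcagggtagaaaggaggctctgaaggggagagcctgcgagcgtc
P4ha2, chr11:54100674-54100973, plus strand: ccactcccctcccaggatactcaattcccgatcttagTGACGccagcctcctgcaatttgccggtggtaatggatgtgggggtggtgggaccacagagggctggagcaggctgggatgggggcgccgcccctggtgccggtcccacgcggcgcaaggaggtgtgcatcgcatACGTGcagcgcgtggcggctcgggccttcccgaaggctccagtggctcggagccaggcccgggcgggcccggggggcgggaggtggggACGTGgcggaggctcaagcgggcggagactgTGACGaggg
Loxl4, chr19:42612757-42613056, minus strand: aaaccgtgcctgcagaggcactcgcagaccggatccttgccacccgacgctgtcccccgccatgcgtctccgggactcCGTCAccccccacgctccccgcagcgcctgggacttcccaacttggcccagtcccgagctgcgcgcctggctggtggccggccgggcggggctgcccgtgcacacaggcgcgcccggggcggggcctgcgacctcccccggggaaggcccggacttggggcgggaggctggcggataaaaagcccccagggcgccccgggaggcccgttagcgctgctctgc
The Nr4a1 window holds TGACG 4 times. The Slc23a2 window shown holds it 2 times, but it belongs to the start site 132145320, which is not that of the transcript in the deposited table. The window at the start of that transcript, chr2:132145059-132145358, holds neither TGACG nor ACGTG, so the matches are not at the start of the transcript that was counted. The P4ha2 window holds TGACG 2 times and ACGTG 2 times, and the Loxl4 window holds TGACG 1 time; in none of these windows does a match of one motif overlap a match of the other. Promoter sequences were matched for 5 of the 10 members (Loxl4, Plod1, Plod3, P4ha1 and P4ha2). TGACG occurred in 2 of these 5 and in 20.8% of 32851 mouse promoter windows, and ACGTG in 3 of the 5 (Plod3, P4ha1 and P4ha2) and in 19.6%. The 2 members with TGACG are the 2 shown. Plod1, Plod3 and P4ha1, which did not pass the test either, hold no TGACG and are not shown. The full palindrome TGACGTCA occurred in 1.8% of all windows and in none of the 4 shown. A match is a run of letters and not a measured binding site.

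The hydroxylases were the abundant part of the set and the lysyl oxidases the scarce part. Per length of transcript, as RPKM (CPM per kilobase of the deposited gene length), P4ha1 had the highest level, with a mean of 69.7 over the 6 libraries (range 61.1 to 86.0). Plod3 followed at 45.1 (40.4 to 50.4), Plod2 at 41.2 (36.0 to 46.7), Plod1 at 28.1 (19.2 to 38.4) and P4ha2 at 17.7 (10.3 to 21.3). Of the lysyl oxidases, Lox stood at 14.7 RPKM (8.04 to 21.0), Loxl4 at 14.5 (8.63 to 20.3), Loxl2 at 7.01 (4.59 to 10.2), Loxl3 at 4.66 (2.27 to 6.68) and Loxl1 at 4.08 (1.40 to 6.35). In this order P4ha1 was the only gene whose range lay clear of its neighbour's; every other pair of neighbours overlapped. Among the 12233 genes tested, these mean levels lay between the percentile of 27.1 for Loxl1 and that of 89.8 for P4ha1.

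**Figure D1:**
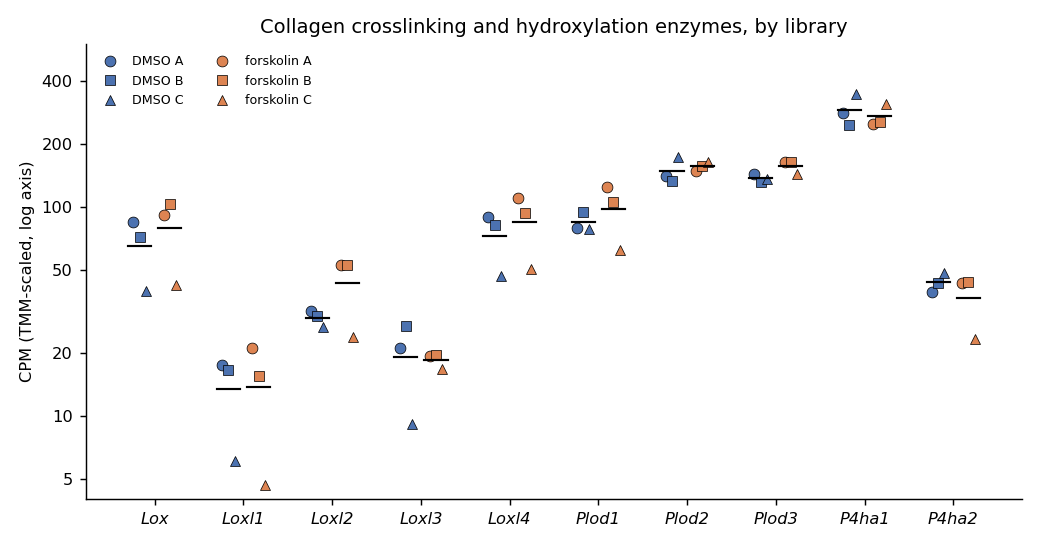
CPM of each enzyme gene (log axis) in the 3 DMSO and 3 forskolin libraries; circles, squares and triangles are replicates A, B and C, and bars are group means. For Loxl2, forskolin A and B stand at 52.4 and 52.8 CPM above all 3 DMSO libraries, while forskolin C at 23.7 CPM lies below them.

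The question of the comparison is whether 3 h of adenylyl cyclase activation changes the transcripts of these enzymes. By edgeR's quasi-likelihood test with Benjamini-Hochberg adjustment over all 12233 genes at 0.05, 0 of the 10 were called higher and 0 lower, against 2.80% of all genes called (2.22% higher and 0.572% lower). None had an unadjusted p under 0.05, which 12.1% of all genes had, and for none were the groups free of overlap, as they were for 20.2% of all genes. With only 10 genes, these counts of 0 cannot be told from those shares. The edgeR likelihood ratio test, limma-voom and DESeq2 each called 0 members, and limma-voom with sample quality weights called 1, Loxl2. Over all 12233 genes these fits called 458, 357, 409 and 595 higher and 190, 125, 144 and 389 lower, in that order. The median log2 fold change of the members was 0.14, beside 0.00495 for all tested genes. Of the 10, 7 were above 0, beside 50.8% of all tested genes, a difference that so few genes cannot establish. For 8 of the 10 the approximate 95% interval lay within a 2-fold change in either direction; the exceptions were Loxl1 and Loxl2. In bulk RNA, fewer cells of a type and less RNA per cell cannot be told apart.

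Lox, the founding crosslinking enzyme (chromosome 18, 52516060 to 52529823, mm10, minus strand), had 84.0, 71.3 and 39.3 CPM in DMSO A, B and C and 91.1, 103 and 42.4 CPM in forskolin A, B and C. The groups overlapped, and the C library was the lowest of each. Its log2 fold change was 0.29 ± 0.32 (SE), with a 95% interval of −0.42 to 1.00 (adjusted p = 0.853). Loxl4, the other abundant lysyl oxidase of these cells (chromosome 19, 42592279 to 42612806), showed the same layout, with 89.3, 82.0 and 46.8 CPM in DMSO and 110.2, 93.5 and 50.1 CPM with forskolin. Its log2 fold change was 0.23 ± 0.29 (adjusted p = 0.872). The groups overlapped here too, and the distance from C to A and B exceeded the distance between the group means.

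Loxl2 had the largest change and the smallest p among the members. It encodes a lysyl oxidase that crosslinks the collagen IV network and has been studied as a drug target in liver fibrosis (chromosome 14, 69609476 to 69695834, plus strand). Its values were 31.8, 30.0 and 26.4 CPM in DMSO A, B and C and 52.4, 52.8 and 23.7 CPM in forskolin A, B and C. Forskolin A and B were above every control and forskolin C, with 61 counts, was below every control. The means were 29.4 ± 2.73 and 43.0 ± 16.7 CPM (SD, n = 3 per group), a 1.49-fold difference with a 95% interval of 0.974 to 2.27 (edgeR unadjusted p = 0.0633, adjusted p = 0.459). Without forskolin C the log2 fold change was 0.83 (edgeR adjusted p = 0.0226). With both C libraries left out it was 0.76 ± 0.15 (edgeR adjusted p = 0.00169). That last fit used only A and B of each group and called 5.86% of 12597 genes higher and 3.90% lower. Both fits leave out forskolin C, the treated library below every control, so their p-values depend on that choice. Without any other single library Loxl2 did not pass, and over all 19 alternatives it was called 3 times, with a log2 fold change between 0.40 and 0.83. In GENCODE M21 its exons share 301 bases with Gm27177, an antisense gene, and reads there cannot be told apart, since the kit keeps no strand information.

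Loxl3 and Loxl1 were the scarce lysyl oxidases. Loxl3 (chromosome 6, 83034224 to 83052564, plus strand) had 21.0, 26.9 and 9.15 CPM in DMSO and 19.4, 19.5 and 16.7 CPM with forskolin, with the forskolin values inside the DMSO range (log2 fold change −0.07 ± 0.34, adjusted p = 0.978). Its exons share 535 bases with Htra2, a mitochondrial protease gene on the other strand, in GENCODE M21. Reads from that stretch, too, cannot be told apart. Htra2 itself went from 46.2 ± 7.82 CPM in controls to 48.7 ± 4.02 CPM in treated cells (log2 fold change 0.07). Loxl1, which is known for its part in elastic fibres (chromosome 9, 58287723 to 58313212, minus strand), had 17.5, 16.6 and 6.10 CPM in DMSO and 21.2, 15.4 and 4.66 CPM with forskolin. The lowest of these values rest on 18 counts in DMSO C and 12.5 in forskolin C. The log2 fold change was 0.06 ± 0.50 with an interval of −1.05 to 1.16, which includes a 2-fold change in either direction.

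Of the lysyl hydroxylases, Plod3 had the smallest unadjusted p. This enzyme, which also glycosylates hydroxylysine (chromosome 5, 136987019 to 136996646, plus strand), had 144, 131 and 136 CPM in DMSO and 163, 164 and 143 CPM with forskolin. Forskolin C fell just inside the DMSO range, and the other 2 treated libraries were above it. The log2 fold change was 0.20 ± 0.11 (unadjusted p = 0.0876, adjusted p = 0.521), and it stayed between 0.17 and 0.26 in all 19 alternatives without passing in any of them (adjusted p from 0.0665 to 0.846). Plod3 shares 529 exon bases with Znhit1 on the other strand, a gene with 42.9 ± 4.48 CPM in controls and 55.7 ± 4.71 CPM in treated cells (log2 fold change 0.37 ± 0.16, adjusted p = 0.38), and reads there cannot be told apart.

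Plod1, the lysyl hydroxylase of the helical part of collagen (chromosome 4, 147909753 to 147936776, minus strand), had 79.5, 94.6 and 78.6 CPM in DMSO and 124, 105 and 62.2 CPM with forskolin. As for Loxl2, forskolin A and B were above all controls and forskolin C was below them. The log2 fold change was 0.22 ± 0.21 (adjusted p = 0.811) over 6 libraries and 0.38 ± 0.11 (adjusted p = 0.0358) without both C libraries, and it was 0.01 without forskolin A. The fit without both C libraries leaves out that low forskolin C value, and it called 5.86% of all genes higher. Plod2, the hydroxylase of the chain ends (chromosome 9, 92542223 to 92608427, plus strand), had 140, 133 and 172 CPM in DMSO and 147, 157 and 163 CPM with forskolin. All forskolin values lay inside the DMSO range, and the 95% interval of the fold was narrow, 0.873 to 1.27 (adjusted p = 0.907). Plod2 shares 346 exon bases with Gm38391 on the other strand, with the same limit.

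The prolyl 4-hydroxylase subunits had fitted changes below 0. P4ha1 (chromosome 10, 59323296 to 59373304, plus strand) had 279, 246 and 346 CPM in DMSO and 248, 255 and 310 CPM with forskolin, with complete overlap and the C library the highest of each group. Its fold was 0.933 with an interval of 0.743 to 1.17 (adjusted p = 0.891). P4ha2, the subunit of the type II enzyme (chromosome 11, 54100924 to 54131667, plus strand), had 39.1, 42.9 and 48.1 CPM in DMSO and 43.1, 43.4 and 23.3 CPM in forskolin A, B and C. Only forskolin C, with 59.5 counts, was apart from the other 5 libraries. The log2 fold change was −0.21 ± 0.23 (adjusted p = 0.856) and turned to 0.068 without both C libraries, 0.0083 without forskolin C and 0.018 with sample quality weights. P4ha3, the remaining alpha subunit gene of the genome, had no more than 3 counts in any library and was not tested.

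**Figure D2:**
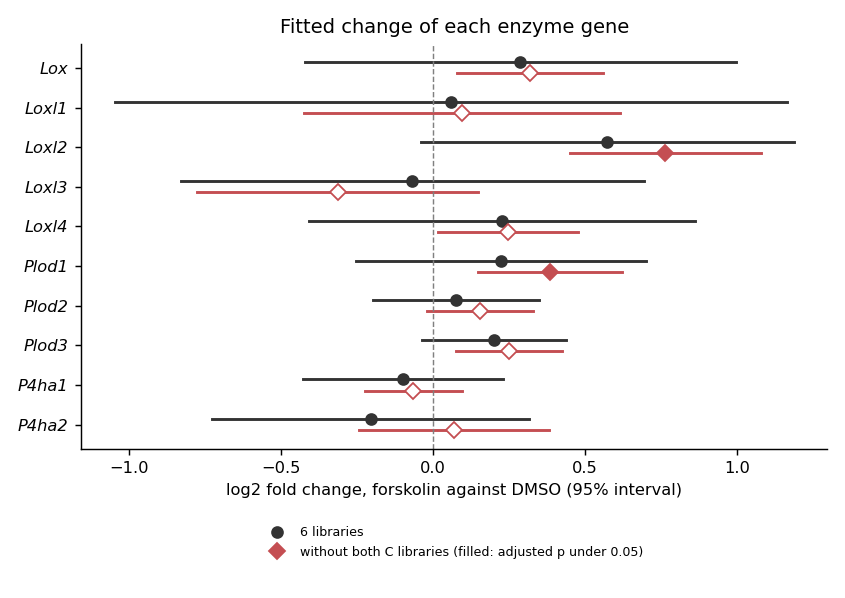
Fitted log2 fold change of each enzyme gene with its approximate 95% interval, over all 6 libraries (black) and without both C libraries (red, filled where the adjusted p is under 0.05). Intervals of all 10 genes cross 0 over 6 libraries, and Loxl2 and Plod1 pass the threshold without both C libraries. That fit leaves out forskolin C, which was below every control for both genes.

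In both groups the C library held less lysyl oxidase RNA than A and B. Summed over the family, lysyl oxidases were at 50.3, 47.2 and 25.9 RPKM in DMSO A, B and C and at 60.3, 57.9 and 28.1 RPKM in forskolin A, B and C. The group means were 41.1 ± 13.3 and 48.8 ± 18.0 RPKM (SD, n = 3 per group; exact two-sided permutation p = 0.5, where the smallest p possible is 0.1). Lysyl hydroxylases summed to 108.3 ± 3.87 RPKM in DMSO and 120.4 ± 11.4 RPKM with forskolin (exact permutation p = 0.2), and prolyl 4-hydroxylase subunits to 91.6 ± 14.4 and 83.6 ± 3.45 RPKM (exact permutation p = 0.7). For each gene, the level in C was divided by the mean of A and B of the same group, after adding 0.5 CPM to both. Loxl1 in C was 0.376 of that mean in DMSO and 0.275 with forskolin, Lox 0.509 and 0.440, and Loxl4 0.549 and 0.495. P4ha1 was the reverse, at 1.32 and 1.23, and Plod2 was at 1.26 and 1.07. On the log2 scale the middle 50% of all tested genes lay between −0.40 and 0.25 in DMSO and between −0.48 and 0.27 with forskolin, with medians of −0.04 and −0.07. Lox, Loxl1 and Loxl4 were below, and P4ha1 above, this band in both groups. Loxl2, Plod1 and P4ha2 were below the band in forskolin C and within it in DMSO C, while Loxl3 was below it in DMSO C and within it in forskolin C. Depth and the sum of portal fibroblast and mesothelial markers were also lower in the C libraries; their part in these differences was not tested. Across genes, the same ratio had a Spearman correlation with gene length of −0.05 in DMSO and −0.08 with forskolin (12233 genes, a description that rests on 3 libraries per group).

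**Figure D3:**
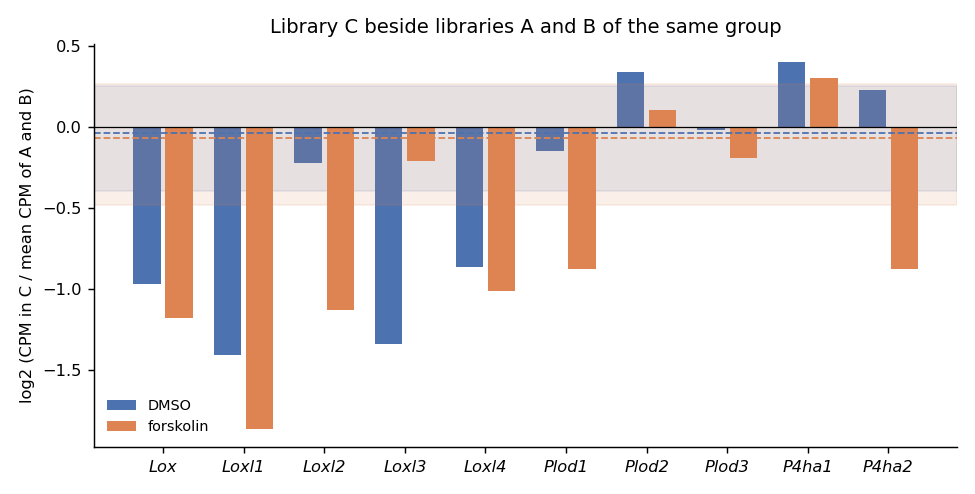
Log2 ratio of CPM in library C to the mean CPM of libraries A and B, per group, after adding 0.5 CPM; dashed lines are the medians and shaded bands the middle 50% of all tested genes. Lox, Loxl1 and Loxl4 lie below the band and P4ha1 above it in both groups.

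The make-up of each family was compared as well, as each gene's share of its family's RPKM. Lox made up 32.0% ± 1.85 of lysyl oxidase RPKM in DMSO and 32.7% ± 3.08 with forskolin, and Loxl4 32.7% ± 0.630 and 32.2% ± 2.11 (SD, n = 3 per group; exact permutation p = 0.9 for each). Loxl2 had 12.2%, 12.3% and 19.8% of the family in DMSO A, B and C and 16.8%, 17.6% and 16.4% with forskolin (exact permutation p = 0.4). The shares of forskolin A and B were above those of DMSO A and B, and the share of DMSO C was the highest of all 6. Loxl3 took 11.1% ± 2.77 and 10.4% ± 3.82, and its difference of −0.73 percentage points was −4.09 without both C libraries, while it ran from −2.93 to 0.81 (without DMSO B) when 1 library was left out. Plod3, Plod2 and Plod1 made up 38.9% ± 2.25, 37.0% ± 3.89 and 24.1% ± 3.20 of lysyl hydroxylase RPKM in DMSO and 40.0% ± 0.932, 35.4% ± 5.23 and 24.6% ± 6.09 with forskolin (exact permutation p = 0.5, 0.5 and 1). P4ha1 made up 78.7% ± 2.05 and 80.4% ± 6.76 of the prolyl 4-hydroxylase subunits (exact permutation p = 0.8). No share passed, in a design in which none could reach 0.05, and in every family the groups overlapped.

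**Figure D4:**
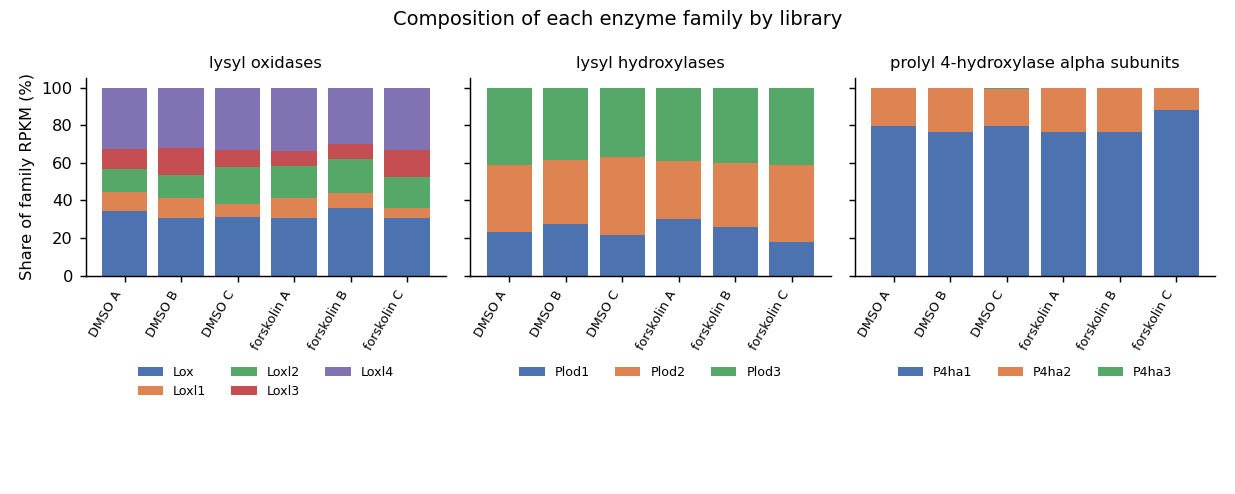
Share of each gene in the summed RPKM of its enzyme family, for each of the 6 libraries; P4ha3 is a sliver at most. Lox and Loxl4 each hold about equal shares of the lysyl oxidases, and P4ha1 holds 76.3% to 88.2% of the prolyl 4-hydroxylase subunits.

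Genes that assist the same enzymes in the endoplasmic reticulum gave no call. Of 18 tested genes for collagen modification, folding and export, 0 were called by edgeR, against 2.80% of all genes. With so few genes, 0 calls cannot be told from that share. An unadjusted p under 0.05 was found for 1 of them, and for 12.1% of all genes. Limma-voom, DESeq2 and the likelihood ratio test called 0 of the 18, beside the counts over all genes given above for these fits. The median log2 fold change was 0.04. P4hb, the partner subunit of P4ha1 and P4ha2, had 653.6 ± 70.0 CPM in controls and 733 ± 150 CPM in treated cells (log2 fold change 0.16 ± 0.17, adjusted p = 0.832). The collagen chaperone gene Serpinh1 (HSP47) was at 645 ± 52.3 and 626 ± 21.4 CPM, and Hspa5 (BiP) at 1362 ± 369 and 1516 ± 645 CPM. P3h3, a prolyl 3-hydroxylase family member, was the gene with the unadjusted p under 0.05 (log2 fold change 0.58 ± 0.24, adjusted p = 0.362); it is named after its value was seen. Of 13 tested collagen substrates 0 were called by edgeR and none had an unadjusted p under 0.05, beside the same 2.80% and 12.1% of all genes. Here too, counts of 0 cannot be told from those shares. The same 3 tools called 0 of the substrates. The most abundant per length, Col4a1, Col4a2 and Col5a2, had log2 fold changes of 0.05 ± 0.16, 0.08 ± 0.18 and 0.17 ± 0.31. Without both C libraries 2 substrates, Col5a1 and Col1a1, were called higher, in a fit that called 5.86% of all genes higher; both are named after their calls were seen.

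Genes for procollagen processing and for the matrix and copper partners of lysyl oxidases gave 0 calls among 18 tested by edgeR, against 2.80% of all genes. Of the 18, 4 had an unadjusted p under 0.05, beside 12.1% of all genes. The groups did not overlap for 5 of the 18 (27.8%), beside 20.2% of all genes. No test of the list was made. Limma-voom, DESeq2 and the likelihood ratio test each called 1 gene, Fn1. Over all 12233 genes these 3 fits called 357, 409 and 458 higher and 125, 144 and 190 lower, in that order. The median log2 fold change was 0.29, with 15 of 18 above 0, where all tested genes had 50.8% above 0. Fn1, the fibronectin to which lysyl oxidase binds in the matrix, had 82.6, 70.4 and 46.8 CPM in DMSO and 127, 154 and 84.0 CPM with forskolin. Its groups did not overlap, and its log2 fold change was 0.87 ± 0.24 (edgeR adjusted p = 0.109). It was called in 8 of 19 alternatives, among them those without forskolin C (log2 fold change 1.05, adjusted p = 0.0136) and without both C libraries (0.88, adjusted p = 1.32e-05). The fit without forskolin C called 372 of 12872 genes higher and 113 lower. That without both C libraries called 5.86% of 12597 genes higher and 3.90% lower. Tgm2, a transglutaminase that crosslinks matrix by another chemistry, was at 344 ± 32.3 and 443 ± 50.2 CPM (log2 fold change 0.37 ± 0.13, adjusted p = 0.26, and 0.00147 without both C libraries). Of the copper genes, Atp7a, the pump that loads copper into secreted enzymes, had a log2 fold change of −0.56 ± 0.17 (adjusted p = 0.18). Atox1, which hands copper to that pump, had one of 0.46 ± 0.19 (adjusted p = 0.353). Decorin (Dcn), a collagen-binding proteoglycan, was at 303 ± 69.7 and 308 ± 64.1 CPM. Fn1 and Atp7a are named after their values were seen.

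A further list held genes that carry, store, make or use ascorbate, iron or 2-oxoglutarate, which the hydroxylases need. It was chosen with earlier results of these data known. Of 10 tested, 1 rose (all genes, 2.22%) and 9 did not pass (median log2 fold change 0.22). The gene that rose was Slc23a2, the sodium-dependent vitamin C transporter SVCT2 (1 of its promoter windows is shown above). It had 106, 109.6 and 102 CPM in DMSO and 298, 294 and 228 CPM with forskolin, and every treated library was above every control. The log2 fold change was 1.37 ± 0.12 (adjusted p = 1.56e-04), a value that ranged from 1.30 to 1.48 and passed in all 19 alternatives. The ferritin gene Fth1 was at 842 ± 354 and 921 ± 531 CPM, the transferrin receptor gene Tfrc at 386 ± 25.9 and 458 ± 38.0 CPM, and Gsto1, which reduces dehydroascorbate, at 203 ± 14.2 and 234 ± 41.3 CPM; none of these passed.

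HIF target genes were read beside the members because several hydroxylases and oxidases are HIF targets elsewhere. Of 19 tested, 5 rose (26.3%, against 2.22% of all genes) and none was called lower, with a median log2 fold change of 0.21. The list was chosen with earlier results of these data known, so this share cannot be read as independent of them. Vegfa, the angiogenic factor and also a cAMP-responsive gene, rose by 1.42 ± 0.12 on the log2 scale (adjusted p = 1.24e-04). Ddit4, an inhibitor of mTORC1 signalling, rose by 1.36 ± 0.19, and Hk2, a hexokinase, by 0.98 ± 0.16. Pfkfb4, a regulator of glycolysis, rose by 1.05 ± 0.24 (adjusted p = 0.0447) and Ndrg1, a stress-response gene, by 0.79 ± 0.16 (adjusted p = 0.0245). Ldha, Adm and Slc2a1, the most abundant per length, had log2 fold changes of 0.52 ± 0.15, −0.43 ± 0.15 and 0.29 ± 0.10 and did not pass. Ldha was called higher in 6 of 19 alternatives, among them DESeq2 and the likelihood ratio test, and Slc2a1 without both C libraries and with a replicate block. Adm was called lower in 4 of 19 alternatives, among them those without forskolin C, without both C libraries and with a replicate block. The count of 5 was 6 by DESeq2, 6 by the likelihood ratio test and 7 without both C libraries, but it was 2 without forskolin A or without DMSO B, and 3 without DMSO A or without DMSO C. Pfkfb4 missed the threshold without any 1 library other than forskolin C (adjusted p from 0.0673 to 0.259), and Ndrg1 without forskolin A or any 1 DMSO library (0.0628 to 0.11). Hk2 missed it without forskolin A (0.0582) and without DMSO B (0.0573). Over all 6 libraries 0 of the 10 enzyme genes passed and all overlapped between the groups, P4ha1, Plod2 and Lox among them. Without both C libraries Loxl2 and Plod1 were called higher (edgeR adjusted p = 0.00169 and 0.0358), in a fit that called 5.86% of all genes higher. That fit leaves out forskolin C, which was below every control for both genes.

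**Figure D5:**
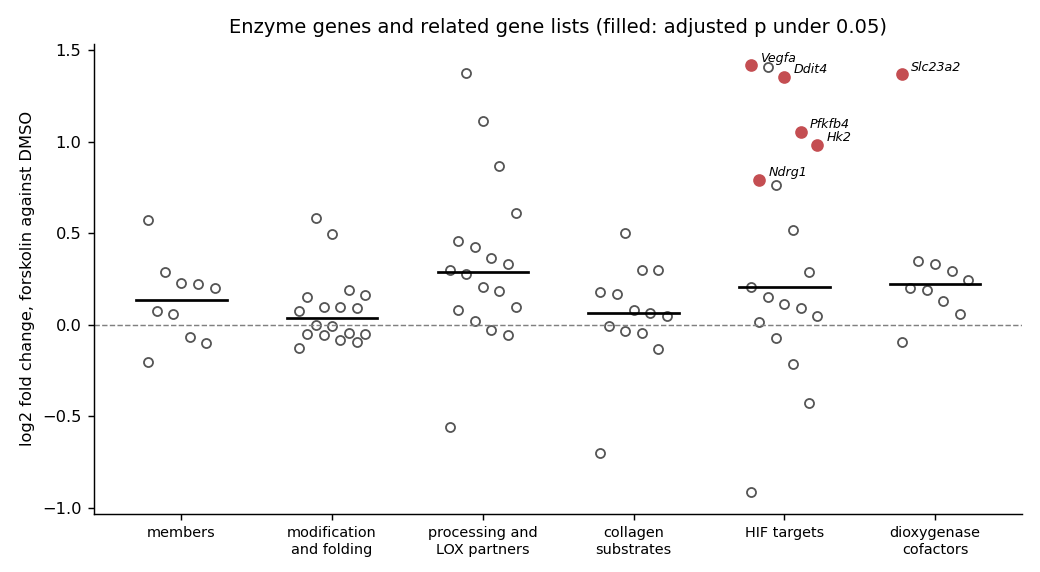
Log2 fold change of each tested gene in the enzyme set and in 5 related lists; filled points have an adjusted p under 0.05 and bars are medians. None of the 10 enzyme genes is filled, while Slc23a2 and 5 HIF target genes are.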

How the data were processed

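RNA-seq libraries of 6 samples, 3 per group, were analysed from the expected counts per gene that the authors deposited, in a table named as exon counts without adjustment. The submitters' processing notes name STAR, HOMER and mm10; their versions, the counting rule and the handling of duplicates are not given in the labels used here. Of the deposited values 24.2% were not whole (steps of 0.5), and counts were rounded before tests; 0 library columns lacked a sample. The kit named in the labels' protocols does not mark strand. Genes were kept by filterByExpr (12233), scaled by TMM and tested with the edgeR 4.0.16 quasi-likelihood F test with robust dispersions in R 4.3.3, with Benjamini-Hochberg adjustment at 0.05 over all tested genes. CPM use TMM-scaled library sizes. Errors are SDs over 3 libraries or approximate SEs, the absolute log2 fold change over the square root of F, with 95% intervals from these. The floor of 3 counts equals 0.279 CPM in forskolin B and 1.17 CPM in forskolin C, and covers counting error only. Alternatives used DESeq2 1.42.0, limma 3.58.1, other scalings and filters, unrounded counts, a replicate block and left-out libraries.

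The members and lists were chosen with earlier results of these data known. Text names all members, up to 5 called and the 3 most abundant genes of each list, Nr4a1 as a check, the genes whose exons overlap members, and, outside this rule, P4ha3 and genes chosen after their values were seen (P3h3, Fn1, Atp7a, Col5a1, Col1a1, Hand2, Lrat). Exon overlaps are from GENCODE M21 (GRCm38).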

Additional observations from a re-analysis of the deposited data

How the results depend on the processing

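Over 19 alternatives none of the 10 enzyme genes was called lower. The number called higher was 0 except for 1 with sample quality weights, 2 without both C libraries, and 0 to 1 over the fits without 1 library. Calls over all genes, 272 higher and 70 lower, were 463 and 157 with no filter, 409 and 144 by DESeq2, 458 and 190 by the likelihood ratio test, 595 and 389 with sample quality weights, 455 and 194 with the replicate block, and 738 and 491 without both C libraries; limma-voom called 125 lower. Without 1 library they ran from 162 to 372 higher and from 21 to 113 lower. Processing genes and lysyl oxidase partners had 1 call higher and 1 lower (Atp7a) with no filter, 1 higher by DESeq2, limma-voom or the likelihood ratio test, 2 with quality weights, the block or without both C libraries, and 0 to 1 without 1 library. Collagen substrates had 1 higher with no filter and 2 without both C libraries. HIF targets had 1 lower (Adm) with quality weights, the block or without both C libraries, and their 5 calls higher were 6 with no filter, DESeq2, the likelihood ratio test or quality weights, 7 with the block or without both C libraries, 4 with library sizes alone, and 2 to 5 higher and 0 to 1 lower without 1 library. Cofactor genes had 2 higher without both C libraries. The cause of these shifts was not tested.

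Fitted changes near 0 changed sign. Loxl1 was −0.016 with the block and ran from −0.36 to 0.39 without 1 library; Loxl3 was 0.00121 and −0.36 to 0.27. Loxl4 ran from −0.00224 to 0.46, P4ha1 from −0.21 to 0.039 and P4ha2 from −0.34 to 0.0083 without 1 library, and P4ha2 was 0.018 with quality weights and 0.068 without both C libraries. Dcn was −0.00989 with upper quartile factors, −0.021 with library sizes alone, and −0.15 to 0.21 without 1 library. Fth1 was −0.063 with quality weights and −0.065 without both C libraries, Hspa5 −0.023 and Col4a1 −0.019 there. Without 1 library the ranges were −0.44 to 0.51 for Fth1, −0.24 to 0.38 for Hspa5, −0.011 to 0.25 for P4hb, −0.00869 to 0.15 for Col4a1, −0.053 to 0.20 for Col4a2 and −0.086 to 0.44 for Col5a2. The Loxl3 share moved from −0.73 to −4.09 points without both C libraries and ran from −2.93 to 0.81 without 1 library. Among HIF calls, Pfkfb4 had adjusted p = 0.0718 with library sizes alone (edgeR); Pfkfb4, Ndrg1 and Hk2 passed in 13, 15 and 17 of 19 alternatives.

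The letters were not taken as pairs because the labels do not say what they share. Deviations from the group means correlated between same-lettered libraries at 0.0476 (A), 0.133 (B) and 0.15 (C). For B and C these were the highest for their libraries, while forskolin A correlated better with DMSO B (0.103). Such deviations, taken about means of 3 libraries, cannot decide whether the letters are pairs. The fit with a replicate block called 0 members. Among the members Loxl1 had the widest interval and, in forskolin C, the lowest count, 12.5.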

Other observations

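Some abundant genes of the same lists were higher in both C libraries, unlike the lysyl oxidases. After adding 0.5 CPM, Fth1, the ferritin heavy chain, was at 1.93 times the mean of A and B in DMSO C and 2.49 times in forskolin C. Hspa5, the main chaperone of the endoplasmic reticulum, was at 1.53 and 1.98 times, and Dcn at 1.44 and 1.41 times. Col5a2, a fibrillar collagen chain, was at 0.494 and 0.472 of that mean, close to the values of Lox and Loxl4. These are single libraries and no test was made.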
